A study of Mus musculus with 24 samples.

Results

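Oxidative phosphorylation subunits, the proteins that make up respiratory complexes I to V, were followed at the level of their RNA in sorted mouse alveolar macrophages. The members were chosen by symbol: protein-coding rows whose symbol starts with Ndufa, Ndufb, Ndufc, Ndufs or Ndufv and a digit, Ndufab1, Sdha to Sdhd, and the Uqcr, Cox4i, Cox5, Cox6, Cox7, Cox8 and Atp5 genes. The 13 protein-coding genes of the mitochondrial genome were added. The rule found 98 of the 43430 rows of the table, 85 nuclear and 13 mitochondrial, and it used no measured value. It left out 10 rows of matching symbol that the annotation lists as processed pseudogenes. Cox7a2l and Atp5s met the rule by symbol but encode an assembly factor of supercomplexes and a coupling factor, not core parts of a complex.

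The libraries came from C57BL/6J mice with no altered allele named, 4 in each of 6 groups. Young mice were 8 to 12 weeks old (2 months in the series text) and old mice over 18 months. Naive mice gave Siglec F-high alveolar macrophages, and mice at 28 days after asbestos gave a Siglec F-high and a Siglec F-low sort. Asbestos is a mineral fibre that scars the lung, and Siglec F is a surface protein of resident alveolar macrophages that cells newly made from monocytes carry at a low level. RNA (30 ng a library) was poly(A)-selected. No label says whether the libraries of a group came from separate mice, so the tests below measure the spread between libraries, and in these bulk samples a change in the mix of cells and a change of RNA per cell cannot be told apart.

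Complexes I and II take electrons from NADH and succinate, complex III passes them to cytochrome c, complex IV hands them to oxygen, and complex V uses the resulting proton gradient to make ATP. Complexes I, III, IV and V are mosaics of subunits encoded in the nucleus and in the mitochondrial DNA, while complex II is wholly nuclear. Mitochondrial genes are transcribed as long polycistronic RNAs and nuclear ones individually, so these sets of messages are made by separate machineries. Resident alveolar macrophages are known for their reliance on fatty acid oxidation and respiration.

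Of the 13 mitochondrial genes only 7 could be tested, and 5 of the other 6 share nearly all of their sequence with nuclear copies. Copies of mitochondrial DNA lie in the nuclear genome, and a block of annotated pseudogenes on the minus strand of chromosome 1 carries several of these genes. The first 60 bases of mt-Co2, the complex IV subunit that accepts electrons from cytochrome c (chrM:7013-7696, plus strand), are shown with its copy Gm28661 (chr1:24614885-24615565). The pair mt-Nd3 (chrM:9459-9806) and Gm28438 (chr1:24612775-24613119), for a membrane subunit of complex I, is shown from the first base as well. A stretch of mt-Nd5 (chrM:11742-13565), the proton-pumping subunit of complex I, stands with its more distant copy Gm4076 (chr13:85126550-85127514). Capitals mark bases that differ within a pair, and the letters are from GENCODE M21 transcripts on GRCm38.
mt-Co2: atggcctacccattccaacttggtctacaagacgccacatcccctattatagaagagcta
Gm28661: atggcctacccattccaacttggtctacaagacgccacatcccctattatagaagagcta
mt-Nd3: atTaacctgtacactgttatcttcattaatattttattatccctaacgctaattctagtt
Gm28438: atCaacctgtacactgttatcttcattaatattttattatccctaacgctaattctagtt
mt-Nd5: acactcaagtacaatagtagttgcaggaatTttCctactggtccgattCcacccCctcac
Gm4076: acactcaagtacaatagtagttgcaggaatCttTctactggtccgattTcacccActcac

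The mt-Co2 message matched its copy over all 681 aligned bases, mt-Nd3 differed from its copy at 1 of 345, and mt-Nd5 differed at 45 of 953. mt-Nd4l, mt-Co3 and mt-Atp6 had no differing base from their chromosome 1 copies over 294, 783 and 678 aligned bases. These were also the genes with almost no counts. Over all 24 libraries mt-Co2 had 1 count, mt-Atp6 had 1, mt-Nd3 had 118, and mt-Co3 and mt-Nd4l had 0. The copies did not hold the counts either: Gm28661 had 28 counts in all, Gm28437 (the copy of mt-Co3) 24, Gm10925 (that of mt-Atp6) 20, Gm28438 had 5 and Gm10222 (that of mt-Nd4l) 1. A count of 0 allows up to 3 counts, or 0.223 CPM (counts scaled to a common library total) in the shallowest of the 22 libraries used, which limits counting error only. The share of 50-base words of each gene that also occur in another annotated transcript was 97.99 to 100% for mt-Nd3, mt-Nd4l, mt-Co2, mt-Co3 and mt-Atp6. It was 51.14% for mt-Co1, 62.23% for mt-Nd4 and under 10% for mt-Nd1, mt-Nd2, mt-Nd5, mt-Nd6 and mt-Cytb. mt-Atp8 was at 0 counts with no shared word in annotated transcripts, and no genome sequence was used here to look further. How reads with several matching places were counted was not tested, so low counts of these 6 genes are no measure of their RNA, and the levels of mt-Co1 and mt-Nd4 may be too low.

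Levels between genes were compared as CPM per kilobase of exon, over 22 libraries. The 7 countable mitochondrial messages held the top 7 places. How evenly poly(A) selection captured mitochondrial and nuclear messages was not tested. The strand setting of the counts is not given, and mt-Nd6 lies on the minus strand, opposite the others. mt-Co1, the catalytic subunit of complex IV, stood highest at 2715 CPM per kilobase, followed by mt-Cytb of complex III at 1674 and mt-Nd1 of complex I at 1314. mt-Nd4 was lowest of the 7 at 414. The order held against every nuclear member on this scale, where the highest was Cox6a1 (complex IV) at 294 CPM per kilobase, then Cox4i1 at 264 and Cox8a at 249. With the length of 1 principal transcript in place of all exons, Cox4i1 was at 535 and Atp5b at 471, above mt-Nd4. Members were placed in complexes by symbol, so Ndufa4, a subunit associated with complex IV, was counted in complex I throughout. Among nuclear members the median level per kilobase of exon was 32.9 for the 37 tested of complex I, 63.5 for the 4 of complex II, 61.4 for the 8 of complex III, 56.1 for the 14 of complex IV and 48.1 for the 17 of complex V. With principal transcripts these medians were 64.1, 88.3, 107, 88.3 and 108, so complex I members had the lowest median on both scales. Ndufb4 stood near the bottom at 1.38, but 37.0% of its 50-base words occur in other transcripts, mostly pseudogenes such as Ndufb4c, and its level is uncertain. Atp5o, Ndufb6 and Ndufa13 share 47.9, 39.0 and 30.0% of their exon bases with other genes and could not be told apart from them there.

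**Figure D1:**
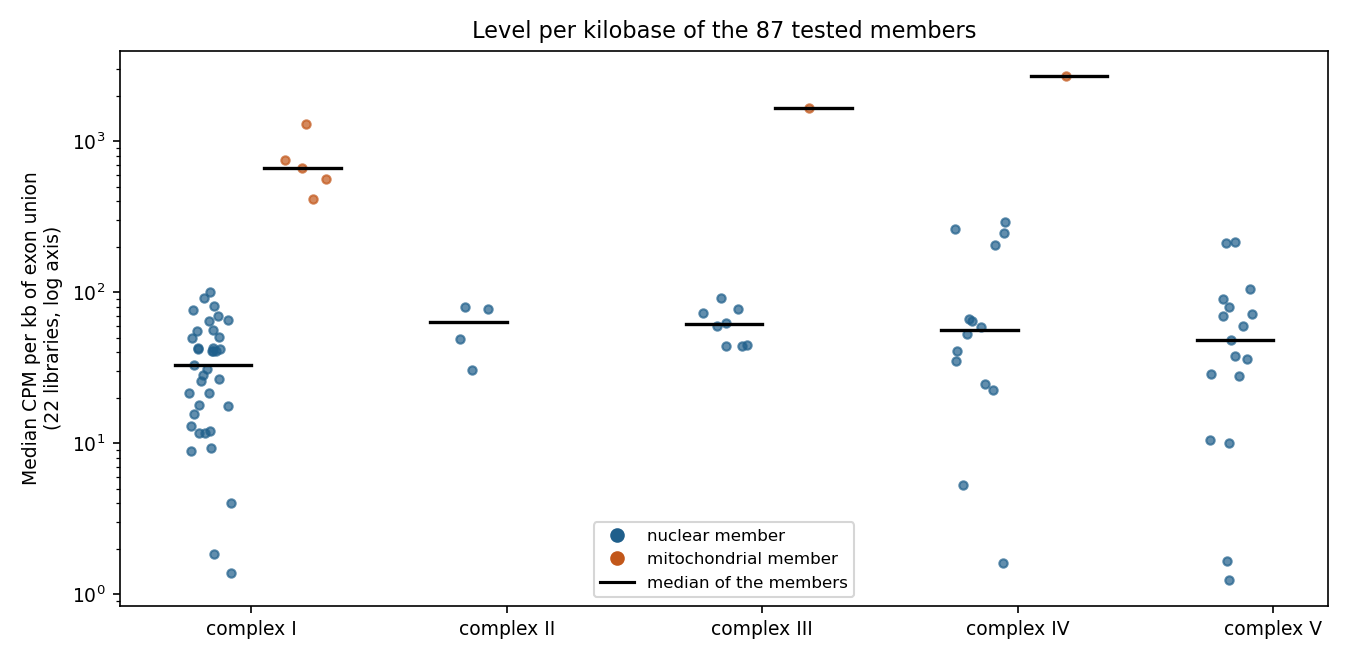
Level of the 87 tested members by complex, as median CPM per kilobase of exon over 22 libraries on a log axis. Each point is 1 gene and bars are medians. The 7 mitochondrial members, from 414 to 2715, sit above every nuclear member.

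The isoforms that other tissues prefer were rare, with 1 exception. Cox4i2, the oxygen-sensitive partner of Cox4i1 known from lung, had 0 to 0.552 CPM against 309 to 617 CPM for Cox4i1. Ndufa4l2, a hypoxia-induced relative of Ndufa4, had 0 to 0.484 CPM, and the testis and muscle isoforms Cox7b2, Cox8b and Cox8c had 0 counts in all 24 libraries. These 5 nuclear genes did not pass the filter on low counts, which left 80 nuclear members tested. The heart and muscle isoforms Cox7a1 and Cox6a2 were measured at 1.64 to 5.53 and 0.327 to 3.50 CPM. Cox6b2, the isoform of the cytochrome c docking subunit known from testis, was the exception at 12.8 to 38.9 CPM, beside 105 to 227 CPM of the common isoform Cox6b1.

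Of the 24 libraries, 22 held 13423080 to 18124526 counts, and 2 stood apart and were left out of every comparison unless said otherwise. Young asbestos Siglec F-high replicate 3 (11889517 counts) had 24160 CPM over the 85 nuclear members and 3750 over the 13 mitochondrial ones. Old asbestos Siglec F-high replicate 3 (3894699 counts) had 3440 and 6605. Within the other 22 a milder difference ran through the members. A short-gene score was taken for each library, the median log2 deviation of 581 other genes with a principal transcript of up to 900 bases minus that of 6019 genes over 3000 bases. It was 0.331 in young naive replicate 2, 0.269 and 0.228 in young asbestos Siglec F-low replicates 1 and 2, and -0.210 to 0.166 in the other 19. The left-out libraries had 1.567 and -1.220. Of the 581 genes 64 encode ribosomal proteins, mitochondrial ones included. Without these 64, young naive replicate 2 had 0.275 and young Siglec F-low replicates 1 and 2 had 0.224 and 0.198, the last under the limit of 0.2 used below. Of the 80 tested nuclear members 43 have principal transcripts of up to 900 bases. Atp5e, a tiny subunit of the ATP synthase stalk, had 104, 230, 92.4 and 99.7 CPM in the 4 young naive libraries, high in the replicate of high score, and 2792 CPM in young asbestos Siglec F-high replicate 3. Values are therefore also given without the 3 libraries of score above 0.2, and with the score as a covariate in a fit of all 22, both chosen after the data were seen. Leaving out the 3 does not balance the score between groups. It leaves young naive libraries at -0.210 to -0.084, against -0.114 to 0.133 in old naive ones. Of the young Siglec F-low sort it leaves only replicates 3 and 4, at -0.083 and -0.017.

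**Figure D2:**
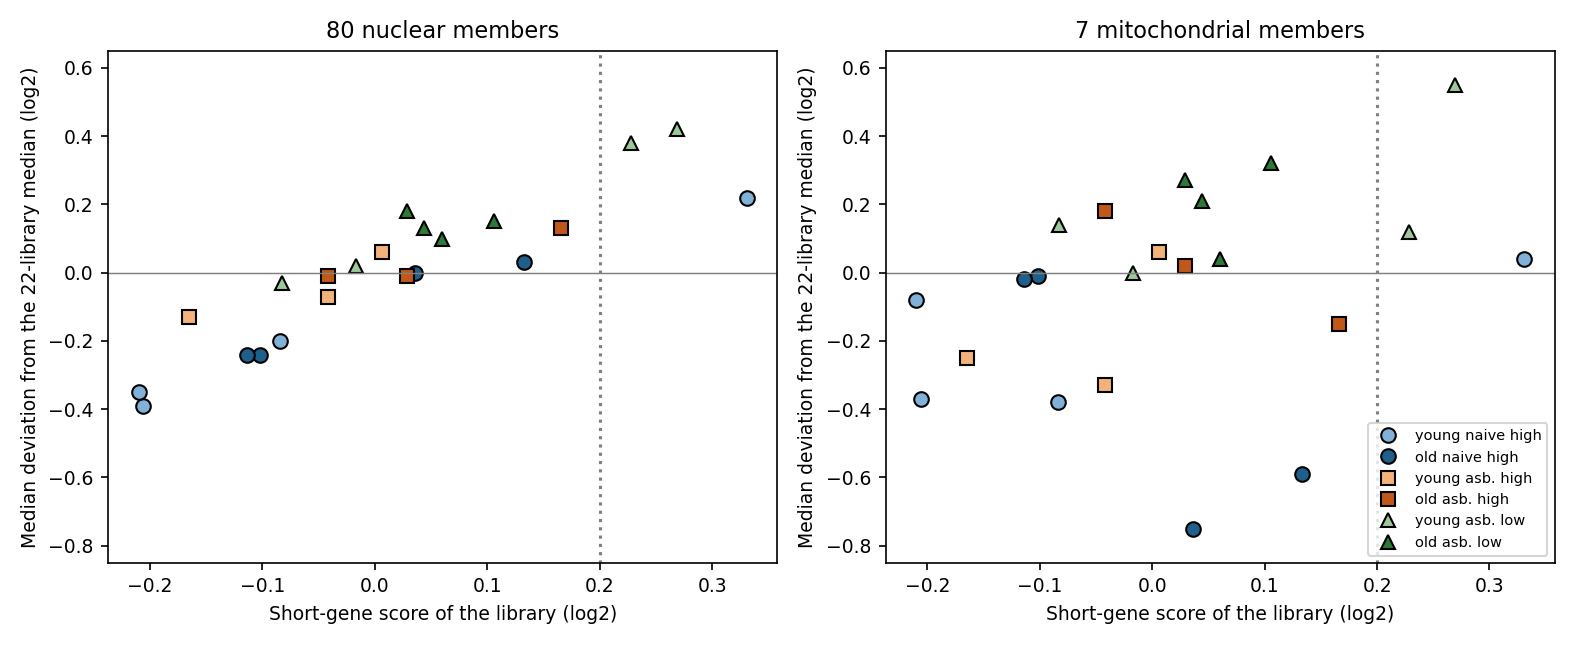
Median log2 deviation of the 80 tested nuclear (left) and 7 mitochondrial (right) members from their 22-library median, against the short-gene score of each library (asb., asbestos; dotted line, 0.2). Nuclear members are high in the 3 libraries right of the line, at 0.22 to 0.42. Among mitochondrial members old naive replicates 1 and 2 are lowest, at -0.75 and -0.59.

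Summed over all nuclear members, the libraries of the 6 groups ranged from 6208 to 9930 CPM. The young naive libraries had 6805, 8709, 6221 and 6208 CPM, and the old naive ones 7679, 7850, 6537 and 6623. After asbestos the Siglec F-high libraries had 8008, 7327 and 7263 in young and 7667, 8345 and 7577 in old mice. The Siglec F-low libraries had 9930, 9756, 7688 and 7876 in young and 8654, 8415, 8618 and 8855 in old mice. All 4 old Siglec F-low libraries lay above the 3 old asbestos Siglec F-high ones, whereas the young sorts overlapped, since young Siglec F-low replicates 3 and 4 lay below Siglec F-high replicate 1. Naive and asbestos Siglec F-high libraries overlapped at both ages.

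The mitochondrial sum was 7718, 10599, 7800 and 9619 CPM in young naive and 6594, 7472, 10411 and 9987 CPM in old naive libraries. It was 10196, 8225 and 8479 in young and 10034, 9011 and 11066 in old asbestos Siglec F-high libraries. In the Siglec F-low sort it was 14681, 10898, 11009 and 10176 in young and 12361, 10470, 12106 and 12277 in old mice. The old naive libraries fell into a low and a high pair, and young Siglec F-low replicate 1 was the highest of all. Mitochondrial over nuclear sums gave ratios from 0.859 to 1.59, with both ends in the old naive group (0.859, 0.952, 1.59 and 1.51). The ratio averaged 1.29 ± 0.18 (SD, n = 4) in young naive, 1.23 ± 0.38 (n = 4) in old naive, 1.19 ± 0.08 (n = 3) in young and 1.28 ± 0.19 (n = 3) in old asbestos Siglec F-high, and 1.33 ± 0.16 and 1.37 ± 0.08 (n = 4 each) in young and old Siglec F-low libraries. No group stood clear of the others in this ratio.

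**Figure D3:**
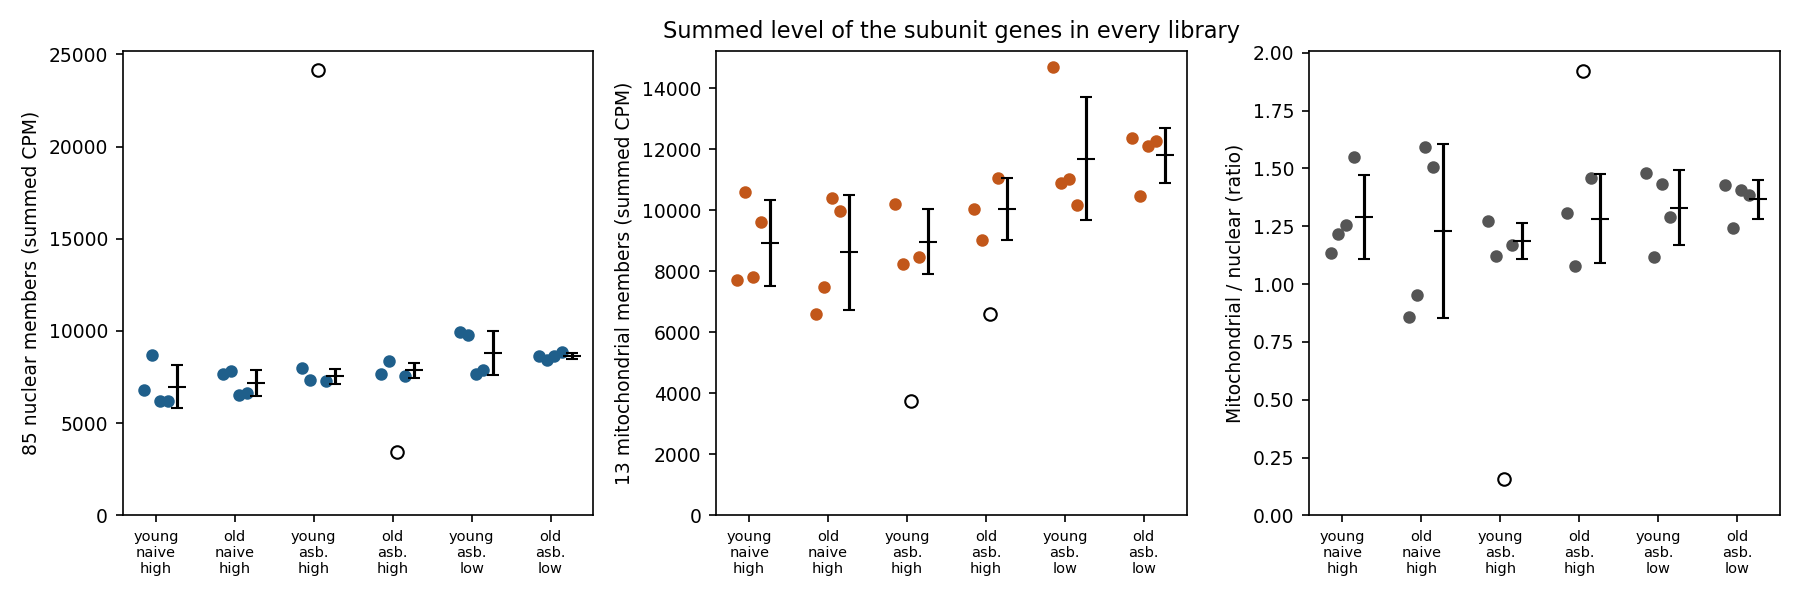
Summed CPM of the 85 nuclear members, of the 13 mitochondrial members, and their ratio, in every library (asb., asbestos; high and low, Siglec F). Filled points are the 22 libraries used, open points the 2 left out, and bars mean ± SD of the filled points. The 2 open points stand far from their groups in the nuclear sum, at 24160 and 3440 CPM.

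Age was compared first in naive mice. None of the 80 nuclear and 7 mitochondrial members differed between old and young naive macrophages by the edgeR quasi-likelihood test at an adjusted p under 0.05, where 8.03% of the 13629 genes tested were called. At an unadjusted p under 0.05 there were 2 nuclear and 0 mitochondrial members, beside 2816 of the 13629 genes. DESeq2 called 0 and limma voom 1 nuclear member (9.85% of all genes by DESeq2 and 13.9% by voom). The median log2 fold change was 0.04 over the nuclear members, of which 55 had a higher value in old mice, and -0.10 over the mitochondrial ones, of which 2 did. Core subunits of complexes I and V were near level. Ndufs1, which carries iron-sulfur clusters of complex I, differed by 0.14 ± 0.07 (log2 ± SE, edgeR adjusted p = 0.246). Atp5b, the catalytic beta subunit of complex V, differed by 0.08 ± 0.06 (adjusted p = 0.494). The 10 nuclear subunits followed by name (Ndufs1, Ndufv1, Sdha, Sdhb, Uqcrc1, Uqcrfs1, Cox4i1, Cox5a, Atp5a1 and Atp5b) gave 2 calls over all 7 comparisons. These were Sdha and Atp5b between the old sorts, where 11.6% of all genes were called. Over the 7 comparisons that share ran from 4.12 to 12.0%. Without the 3 libraries of high short-gene score, 77 of the 80 nuclear values were above 0 with a median of 0.17. Sdhc, a membrane anchor of complex II (0.32, edgeR adjusted p = 0.0333) and Ndufs4, an accessory subunit of complex I (0.34, adjusted p = 0.0472) were called, beside 9.63% of all genes. The young naive libraries left in that fit had scores of -0.210 to -0.084, against -0.114 to 0.133 in old naive ones, so the score was not balanced between the ages. With the score as a covariate 48 of the 80 values were above 0 with a median of 0.01. Sdhc was then called higher (0.22, adjusted p = 0.0441) and Ndufa4 lower (-0.25, adjusted p = 0.0376), beside 11.5% of all genes.

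After asbestos 1 member rose with age in the Siglec F-high sort, Ndufa1, a small accessory subunit of complex I that is needed for its assembly (chrX:37187588-37191163, minus strand). Its level was 39.8, 37.1 and 35.2 CPM in young and 63.8, 50 and 49.6 CPM in old mice. All old values lay above all young ones, with replicate 1 highest of the old. The log2 fold change was 0.55 ± 0.14 (edgeR adjusted p = 0.0213), the only call among 80 nuclear members beside 7.32% of all genes. The call was lost without young replicate 2 (adjusted p = 0.0803), young replicate 4 (0.0946) or old replicate 1 (0.149). With all 24 libraries the difference was -0.05. The nuclear median was 0.07, with 67 of 80 values above 0, and the mitochondrial median 0.17, with 7 of 7 above 0 and none called. The nuclear direction turned with the short-gene score as a covariate, to a median of -0.04 with 25 of 80 above 0, and 2 were called beside 9.51% of all genes, Ndufa1 higher (0.45, adjusted p = 0.0143) and Uqcrh, the hinge protein of complex III, lower (-0.21, adjusted p = 0.0490). Leaving out the 3 libraries of high score gave a nuclear median of 0.06, and Ndufa1 (0.53, adjusted p = 0.00438) and Cox7b (0.37, adjusted p = 0.00766) were called, beside 9.06% of all genes. For the mitochondrial members 0 had an unadjusted p under 0.05, beside 2789 of the 13629 genes. DESeq2 and limma voom called 0 of them, beside 9.24% and 14.4% of all genes.

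In the Siglec F-low sort, which was taken only after asbestos, 2 tissue-restricted isoforms of complex IV differed with age in opposite directions (7.21% of all genes were called). Cox6b2 (chr7:4751792-4753094, minus strand) had 34.3, 24.7, 24.5 and 26.3 CPM in young and 19.1, 16, 17.1 and 12.8 CPM in old mice. Every old library was below every young one. Its log2 fold change was -0.75 ± 0.15 (edgeR adjusted p = 0.00302), and it stayed called without any 1 of the 22 libraries, though not with all 24 (adjusted p = 0.0819). Cox6a2 (chr7:128205435-128206387, minus strand) had 0.567, 0.967, 0.5 and 1.21 CPM in young and 2.21, 1.65, 2.14 and 3.50 CPM in old mice. The groups did not overlap, but the gene had 470 counts in all 24 libraries and 10.3% of its exon bases lie within exons of Itgad. Its log2 fold change was 1.53 ± 0.42 (edgeR adjusted p = 0.0251), lost without young replicate 1 (0.0754), young replicate 3 (0.0760) or old replicate 4 (0.0940), and without the 3 libraries of high short-gene score (0.141). Itgad itself differed by 0.13 (adjusted p = 0.907). The common isoforms of the same subunits were not called, with -0.21 for Cox6b1 (adjusted p = 0.525) and -0.06 for Cox6a1 (adjusted p = 0.870). Without young naive replicate 2, outside this comparison, 3 nuclear members were called. The share of all genes called in that fit is not given here. The nuclear median was -0.04, with 27 of 80 values above 0, and turned to 0.16, with 75 above 0, without the 3 libraries of high short-gene score. That fit held only young replicates 3 and 4, with scores of -0.083 and -0.017, against 0.029 to 0.106 in the old libraries. Cox6b2 (-0.63, edgeR adjusted p = 0.0438) and Cox8a (0.32, adjusted p = 0.0348) were called there, beside 3.4% of all genes. With the score as a covariate the nuclear median was 0.01, with 43 above 0, and 3 were called beside 10.8% of all genes. Of the 7 mitochondrial members 0 were called by edgeR, DESeq2 or limma voom, beside 7.21, 9.18 and 9.28% of all genes. At an unadjusted p under 0.05 there were 0, beside 2757 of the 13629 genes.

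**Figure D4:**
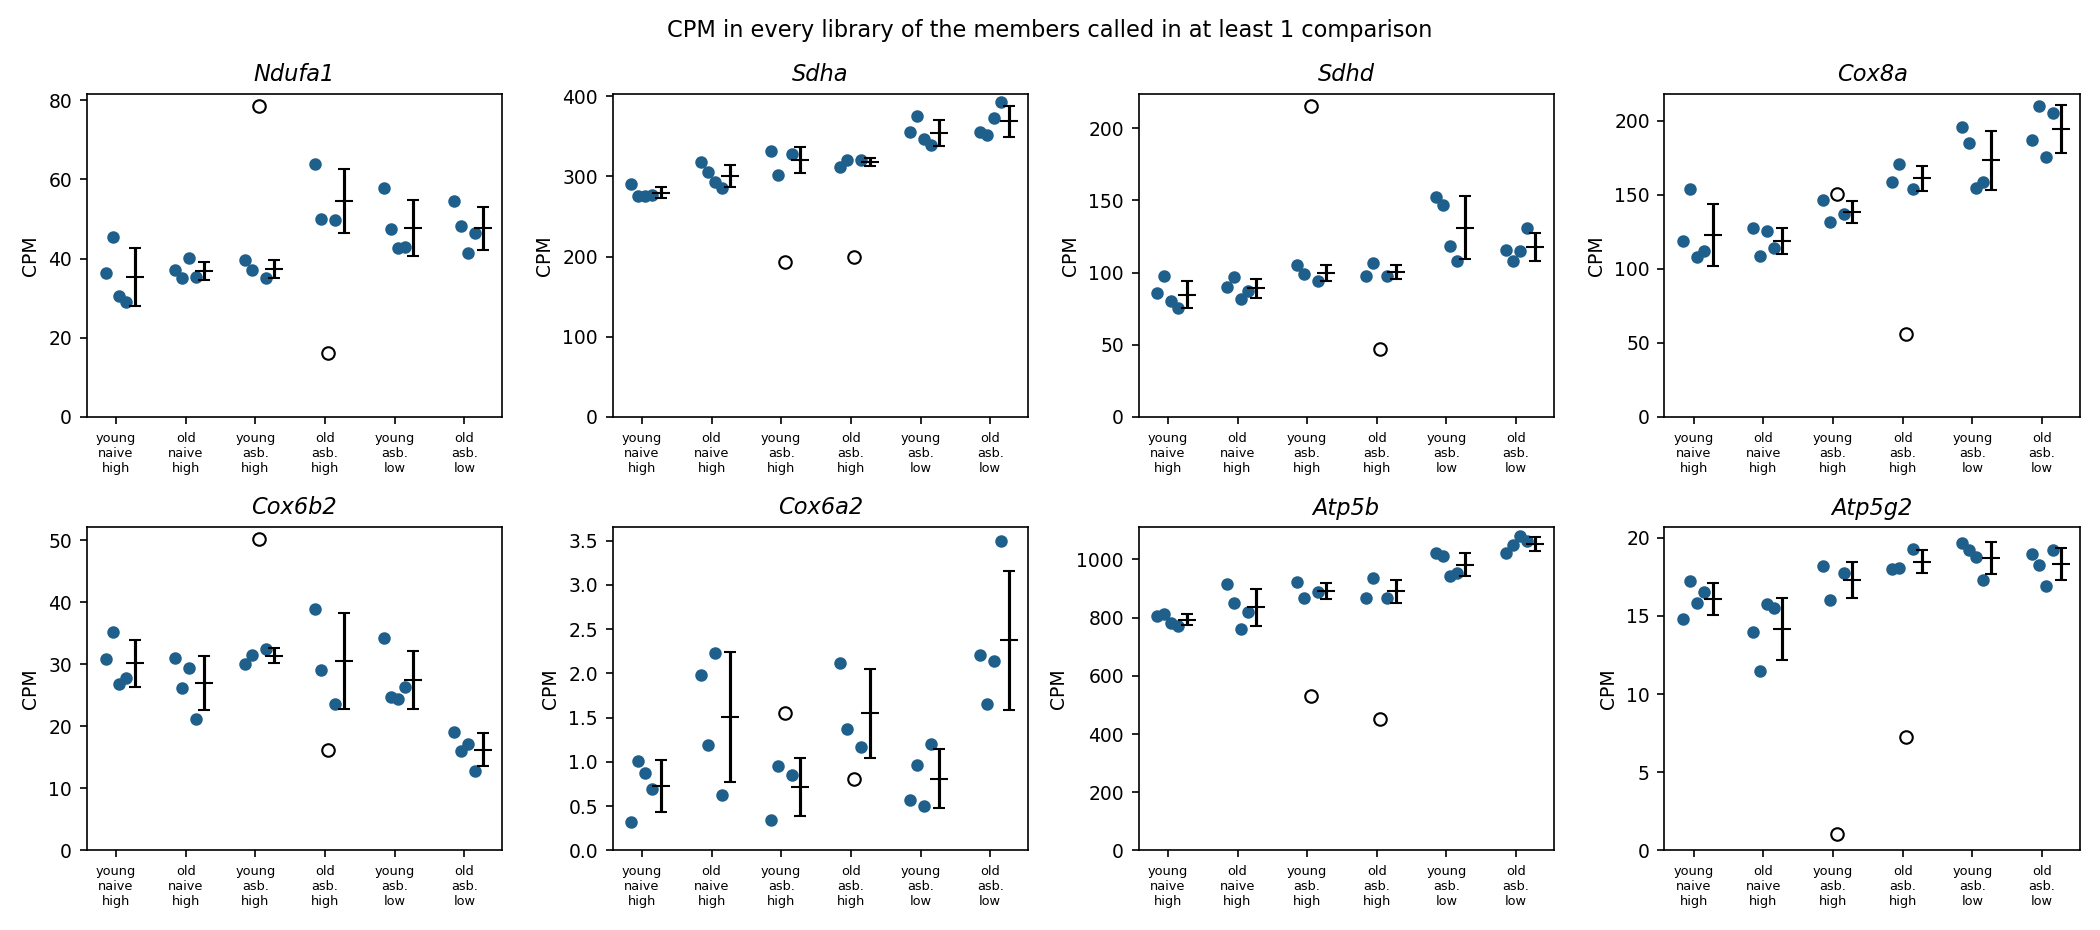
CPM in every library of the 8 members called in at least 1 comparison (asb., asbestos; high and low, Siglec F). Filled points are the 22 libraries used, open points the 2 left out, and bars mean ± SD of the filled points. Cox6b2 is lowest in the old Siglec F-low libraries, at 12.8 to 19.1 CPM, and Ndufa1 in old asbestos Siglec F-high ones, at 49.6 to 63.8 CPM, lies above all naive libraries.

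Asbestos was compared with no treatment within the Siglec F-high sort. These comparisons, those of age and those of the sorts share libraries with each other, so their values are set side by side and not taken as separate evidence. In old mice 3 nuclear members rose and 0 fell, beside 4.12% of all genes called. Ndufa1 rose from 37.0, 35.1, 40.2 and 35.4 CPM in naive to the 63.8, 50 and 49.6 CPM given above, which is 0.56 ± 0.13 on the log2 scale (edgeR adjusted p = 0.0179). Cox8a, the small complex IV subunit of most tissues (chr19:7215153-7217616, minus strand), had 127, 109, 125 and 114 CPM in naive and 159, 171 and 154 CPM in asbestos libraries. Atp5g2, which encodes the c subunit of the rotating ring of complex V (chr15:102662864-102672352, minus strand), had 14, 11.5, 15.8 and 15.5 CPM in naive libraries and 18 to 19.3 CPM in the 3 asbestos ones. For each of the 3 genes every asbestos value lay above every naive one. The log2 fold changes were 0.44 ± 0.11 for Cox8a (adjusted p = 0.0184) and 0.38 ± 0.10 for Atp5g2 (adjusted p = 0.0327). Such non-overlap in the higher direction was found for 15 of the 80 nuclear members and for 9.58% of all genes.

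Without old naive replicate 2 or old asbestos Siglec F-high replicate 1 no nuclear member stayed called in old mice, and without asbestos replicate 2 there was 1. Ndufa1 had an adjusted p of 0.0523 and 0.146 without the first and the second of these, and Cox8a of 0.0639 and 0.0600, and of 0.0725 without asbestos replicate 2. Atp5g2 had 0.0690 and 0.103 without naive replicates 1 and 2, and 0.0832, 0.0626 and 0.134 without asbestos replicates 1, 2 and 4. It was also lost with no filter on low counts (0.0967) and in a fit of only the groups compared (0.133). Without young naive replicate 2, a library outside the comparison that shares its fit, 5 were called. The shares of all genes called in these fits without 1 library are not given here. The nuclear median was 0.13, with 72 of 80 values above 0, and the mitochondrial median 0.27, with all 7 above 0. Without the 3 libraries of high short-gene score 8 nuclear members were called, all higher, beside 5.43% of all genes, among them Cox7b at 0.46 ± 0.08 (adjusted p = 0.00174) and Uqcrq, a small subunit of complex III, at 0.44 ± 0.09 (adjusted p = 0.00573). With the score as a covariate the median was 0.08, with 63 above 0, and 7 were called, all higher, beside 6.68% of all genes.

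Cell markers also moved between naive and asbestos Siglec F-high libraries. The sum of 4 B cell markers was 27.7 to 45.7 CPM in young and 21.1 to 38.9 CPM in old naive libraries, above the 11 to 20.2 and 9.93 to 18.0 CPM after asbestos. That of 4 epithelial markers was 173 to 213 CPM in old naive and 90.7 to 140 CPM in old asbestos libraries, without overlap, and overlapped in young mice. The 9 alveolar macrophage markers summed to 19022 to 21742 CPM in old naive and 39809 to 44482 CPM in old asbestos libraries, of which Chil3, a secreted chitinase-like protein, was the larger share. Without Chil3 the other 8 summed to 6461 to 7487 and 7898 to 8086 CPM. No listed marker of these types was at 0 throughout a group, and the part of these shifts in the subunit differences was not tested.

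In young mice edgeR called 0 nuclear members between asbestos and naive libraries (5.06% of all genes). At an unadjusted p under 0.05 there were 9 of 80, beside 2491 of the 13629 genes. DESeq2 called 2, beside 8.41% of all genes, and limma voom 18, beside 14% of all genes, all of them higher. Sdha, the flavoprotein of complex II that oxidises succinate, had 290, 275, 276 and 277 CPM in naive and 332, 302 and 327 CPM in asbestos libraries. The groups did not overlap, and the log2 fold change was 0.20 ± 0.06 (edgeR adjusted p = 0.0581). Sdha passed without naive replicate 1 (0.0496) or asbestos replicate 2 (0.0494), and 2 members were called without naive replicate 2. The nuclear median was 0.10, with 63 of 80 values above 0. The 3 libraries of high score include naive replicate 2. The naive ones left had scores of -0.210 to -0.084, against -0.165 to 0.006 after asbestos. Without the 3, all 80 values were above 0 with a median of 0.24, and 11 were called, all higher, beside 5.41% of all genes. They were led by Cox5b, a zinc-binding subunit of complex IV, at 0.33 ± 0.07 (edgeR adjusted p = 0.00789), Uqcrq at 0.41 ± 0.09 (0.0160) and Atp5k, a small membrane subunit of complex V, at 0.52 ± 0.13 (0.0200). With the score as a covariate 75 were above 0 with a median of 0.15, and 11 were called, all higher, beside 8.78% of all genes. The mitochondrial median was -0.01 with 3 of 7 above 0, and 0.06 with 7 of 8 above 0 without the 3 libraries, where mt-Nd3 also passed the filter. The difference between nuclear and mitochondrial members was not tested. Of the mitochondrial members 0 were called by edgeR, DESeq2 or limma voom and 0 at an unadjusted p under 0.05.

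**Figure D5:**
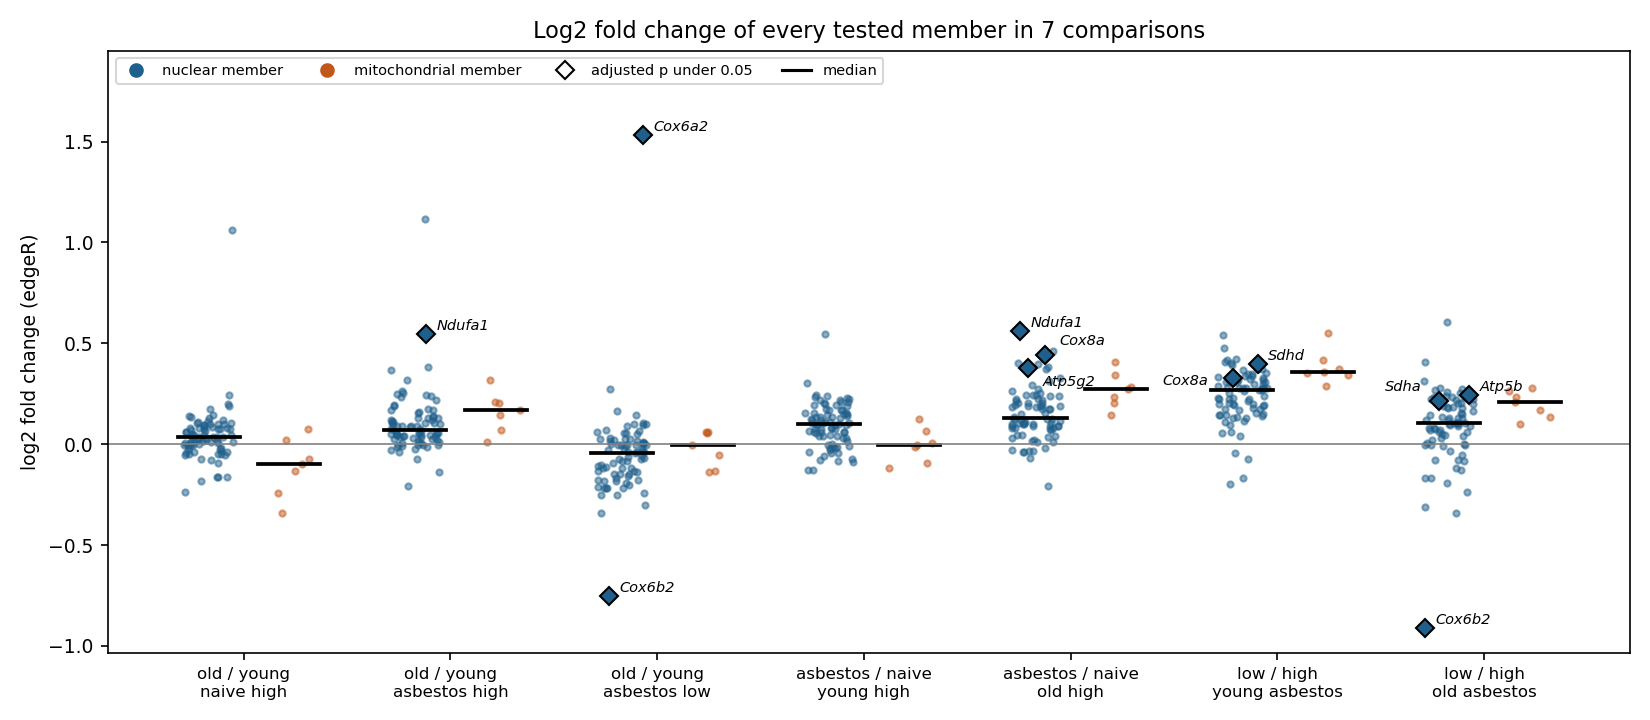
Log2 fold change (edgeR) of the 80 nuclear and 7 mitochondrial members tested in 7 comparisons of 2 groups (high and low, Siglec F). Each point is 1 gene, bars are medians, and diamonds are members with an adjusted p under 0.05. The nuclear medians run from -0.04 to 0.27, and no mitochondrial member is called.

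The sorts were compared after asbestos. In young mice 2 nuclear members were higher in Siglec F-low than in Siglec F-high cells and 0 lower, beside 12.0% of all genes. Sdhd, a membrane anchor of complex II (chr9:50596357-50603812, minus strand), had 105, 99.2 and 94.5 CPM in Siglec F-high and 152, 147, 118 and 108 CPM in Siglec F-low libraries. Cox8a had 146, 132 and 137 CPM against 196, 185, 154 and 159 CPM. Neither gene's groups overlapped, and replicates 1 and 2 of the Siglec F-low sort were the highest for both. The log2 fold changes were 0.40 ± 0.11 for Sdhd (edgeR adjusted p = 0.0149) and 0.33 ± 0.11 for Cox8a (edgeR adjusted p = 0.0470). Non-overlapping higher values were found for 13 of 80 nuclear members and 12.9% of all genes.

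The pattern over all members was broader than these calls. The nuclear median was 0.27, with 76 of 80 values above 0, against a median within 0.01 of 0 over all genes. Other tested genes with principal transcripts of up to 600, 600 to 900 and 900 to 1500 bases had medians of 0.16, 0.16 and 0.10. Nuclear members of these lengths had 0.31, 0.28 and 0.20. From 1500 to 3000 and over 3000 bases the other genes had 0.03 and -0.06, and nuclear members 0.14 and 0.33. By complex, 36 of 37 nuclear values were above 0 in complex I, 4 of 4 in II, 7 of 8 in III, 13 of 14 in IV and 16 of 17 in V. Young Siglec F-low replicates 1 and 2, of high short-gene score, had the highest nuclear sums of the 4. Without the 3 libraries of high score only replicates 3 and 4 of the young Siglec F-low sort were left. The median was then 0.05, 53 values were above 0, and 0 members were called by edgeR. Of all genes 6.28% were called in that smaller fit, against 12.0% with all 22 libraries. Sdhd and Cox8a were then both at 0.18 (adjusted p = 0.309 and 0.292). With the score as a covariate the median was 0.04, with 60 above 0. Sdhd was then still called (0.26, edgeR adjusted p = 0.0224) and Cox8a was not (0.20, adjusted p = 0.112). Ndufa4, associated with complex IV but counted in complex I above, was called lower (-0.36, adjusted p = 0.00765), beside 11.8% of all genes. Sdhd lost its call without Siglec F-high replicate 2 (0.0610) or 4 (0.0783) or Siglec F-low replicate 1 (0.0631) or 2 (0.0596), and Cox8a in 12 of 22 such fits. For Cox8a these were Siglec F-high replicates 1 (0.0547), 2 (0.189) and 4 (0.136) and Siglec F-low replicates 1 (0.154) and 2 (0.126), and outside the comparison young naive replicate 1 (0.0525), old naive replicates 3 (0.0520) and 4 (0.0527), old Siglec F-high replicates 1 (0.0541) and 4 (0.0513) and old Siglec F-low replicates 1 (0.0542) and 4 (0.0507). The number called was 0 in the 4 fits that lost Sdhd and 1 in several that lost Cox8a alone. It reached 9, 7 and 11 without Siglec F-low replicate 3, Siglec F-low replicate 4 and young naive replicate 2. The shares of all genes called in these fits are not given here.

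The mitochondrial members were all higher in young Siglec F-low cells, by 0.29 to 0.55 on the log2 scale with a median of 0.36. edgeR called 0 of 7, with 5 at an unadjusted p under 0.05, beside 3370 of the 13629 genes. DESeq2 and limma voom called 1 each, beside 14.1% and 17.6% of all genes. mt-Co1 came nearest: it had 4028, 3339 and 3556 CPM in Siglec F-high and 6012, 4493, 4624 and 4287 CPM in Siglec F-low libraries. These did not overlap, with Siglec F-low replicate 1 the highest, and the log2 fold change was 0.41 ± 0.14 (edgeR adjusted p = 0.0568). mt-Co1 was called without young naive replicate 2 (0.0470), old naive replicate 1 (0.0362) or 3 (0.0484), young Siglec F-high replicate 1 (0.0486) or Siglec F-low replicate 4 (0.0388). mt-Nd6 differed by 0.55 (adjusted p = 0.105) and was called without young naive replicate 2 (0.0288) or Siglec F-low replicate 4 (0.0446). Without the 3 libraries of high short-gene score the median of the same 7 genes was 0.23. With the score as a covariate it was 0.32, with 7 of 7 above 0, beside a nuclear median of 0.04. The difference between nuclear and mitochondrial members was not tested here either.

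In old mice, whose libraries had no short-gene score above 0.2, 2 nuclear members were higher and 1 lower in the Siglec F-low sort, beside 11.6% of all genes. Atp5b (chr10:128083273-128090391, plus strand) had 868, 936 and 868 CPM in Siglec F-high and 1022, 1048, 1080 and 1064 CPM in Siglec F-low libraries. Sdha (chr13:74322254-74350280, minus strand) had 312, 321 and 321 CPM against 356, 352, 373 and 393 CPM. For both, all Siglec F-low values lay above all Siglec F-high values. The log2 fold changes were 0.24 ± 0.06 for Atp5b (edgeR adjusted p = 0.0110) and 0.21 ± 0.06 for Sdha (edgeR adjusted p = 0.0204). With the replicate numbers as a block within this age, Sdha was no longer called (edgeR adjusted p = 0.0725). The numbers were taken to pair these libraries from correlations in the data, since no label gives a pairing. Atp5b lost its call without Siglec F-high replicate 1 (0.0617) or 4 (0.0530), and Sdha without Siglec F-high replicate 1 (0.0876) or 2 (0.0558) or Siglec F-low replicate 4 (0.0815).

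Cox6b2 was again the member that fell. It had 38.9, 29.1 and 23.6 CPM in old Siglec F-high libraries, all above the 19.1, 16, 17.1 and 12.8 CPM of the Siglec F-low ones, which is -0.91 ± 0.16 on the log2 scale (edgeR adjusted p = 0.000527). It was called under each of the 11 alternatives other than leaving out 1 library and without any 1 of the 22 libraries, with values from -1.06 to -0.70. In young mice the same difference was -0.20 ± 0.16 (adjusted p = 0.486), and the age difference of the sort difference was -0.72 ± 0.23 (edgeR adjusted p = 0.540), so the ages were not shown to differ. The common isoform Cox6b1 was not called at either age, at 0.31 in young (adjusted p = 0.310) and -0.01 in old mice (adjusted p = 0.993).

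The nuclear median in old mice was 0.11, with 61 of 80 values above 0, and 19 had non-overlapping higher values, beside 11.5% of all genes. Without the 3 libraries of high short-gene score, none of which is in this comparison, 11 were called higher and 1 lower, beside 13.4% of all genes. With the score as a covariate 20 were called higher and 2 lower, beside 16.3% of all genes. Without young naive replicate 2 the count was 5, and without old Siglec F-high replicate 1 it was 1, against 3 with all 22. The shares of all genes called in these 2 fits are not given here. The mitochondrial median was 0.21, with 7 of 7 above 0 and 0 called by edgeR, DESeq2 or limma voom. At an unadjusted p under 0.05 there were 0, beside 3214 of the 13629 genes.

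The Siglec F-low sorts also differed in cell markers. All 8 listed markers of monocyte-derived macrophages were detected, none at 0 throughout, and their sum was 140 to 164 CPM in young and 98.7 to 125 CPM in old asbestos Siglec F-high libraries. It was 397 to 586 and 570 to 649 CPM in the young and old Siglec F-low ones, while Siglecf, the gene of the sort marker, had 250 to 309 and 156 to 234 CPM against 461 to 505 and 484 to 502 CPM. All 9 alveolar macrophage markers were detected in every library used. Without Chil3, the most abundant, the other 8 summed to medians of 7483 and 7974 CPM in young and old Siglec F-high and 7955 and 7830 CPM in Siglec F-low libraries. Chil3 alone had medians of 20063 and 35680 against 39183 and 57079 CPM. The epithelial sum was 88.0 to 101 and 90.7 to 140 CPM in Siglec F-high and lower, at 38.2 to 81.3 and 22.5 to 50.1 CPM, in Siglec F-low libraries. The part of these differences in the subunit differences between sorts was not tested.

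Whether the asbestos response or the sort difference itself differed with age was tested by interaction. For the asbestos response 0 of 87 members were called by edgeR, DESeq2 or limma voom, beside 0.0147, 0.0975 and 0.0147% of all genes. At an unadjusted p under 0.05 there were 1 nuclear and 0 mitochondrial members, beside 703 of the 13629 genes. Ndufa1 had the difference 0.48 ± 0.19 (edgeR adjusted p = 0.935). For the sort difference 0 of 87 were called by the same 3 tools, beside 0.0147, 0.252 and 0.11% of all genes. At an unadjusted p under 0.05 there were 2 nuclear and 0 mitochondrial members, beside 870 of the 13629 genes. The nuclear median of that interaction was -0.15, with 10 of 80 values above 0, and became 0.10, with 64 above 0, without the 3 libraries of high short-gene score, and 0.06, with 55 above 0, with the score as a covariate.

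The genes around the complexes were described from lists chosen with earlier results in view. Among 46 tested assembly factors 2 rose and 0 fell in young and 1 rose and 1 fell in old Siglec F-low against Siglec F-high cells. That is 4.35% of the list at each age, beside 12.0% of all genes in young and 11.6% in old mice. Cox10, an enzyme on the path to the haem a of complex IV, rose in both (0.43 and 0.41, edgeR adjusted p = 0.0207 and 0.0287), Uqcc2 rose in young (0.41, adjusted p = 0.0479) and Uqcc3 fell in old mice (-0.50, adjusted p = 0.0262). Timmdc1, a complex I assembly factor, fell with age in Siglec F-low cells (-0.33, adjusted p = 0.0264), beside 7.21% of all genes called. No assembly factor was called elsewhere. Among tricarboxylic acid cycle genes, Idh3a, a subunit of isocitrate dehydrogenase, rose by 0.34 (edgeR adjusted p = 0.0383) and Suclg2, a subunit of succinate-CoA ligase, fell by 0.54 (adjusted p = 0.00388) in old Siglec F-low against Siglec F-high cells. Ogdh, of the oxoglutarate dehydrogenase complex, rose after asbestos in young Siglec F-high cells (0.31, adjusted p = 0.0472).

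Of 11 carriers, Cycs, the cytochrome c that links complexes III and IV, was the 1 that rose in Siglec F-low cells at each age (0.32 and 0.33, edgeR adjusted p = 0.0340 and 0.0322). That is 9.09% of the list, beside 12.0% of all genes in young and 11.6% in old mice. Of 33 genes of mitochondrial transcription and biogenesis, Ppargc1b, a coactivator of nuclear subunit genes, rose after asbestos in young (0.46, edgeR adjusted p = 0.0212) and old Siglec F-high cells (0.67, adjusted p = 0.00186). It was also higher in old Siglec F-low than in Siglec F-high cells (0.54, adjusted p = 0.00339), where Fastk rose as well (0.33, adjusted p = 0.00252). Elac2 fell in young Siglec F-low cells (-0.23, adjusted p = 0.0428). In old naive cells Fastkd3 rose (0.48, adjusted p = 0.0427) and Gabpa, an ETS factor, fell (-0.23, adjusted p = 0.0361). Of this list 3.03% was called after asbestos at each age, beside 5.06% (young) and 4.12% (old) of all genes. Between the sorts it was 3.03% in young and 6.06% in old mice, beside 12.0 and 11.6%. Between the naive ages it was 6.06%, beside 8.03%. Of 77 mitochondrial ribosomal proteins at most 2 were called in any comparison. Mrps34 rose in old naive cells (0.50, adjusted p = 0.00703) and Mrpl41 in young Siglec F-low cells (0.57, adjusted p = 0.0233). Mrps15 fell with age in both sorts after asbestos (-0.35 and -0.23, adjusted p = 0.00344 and 0.0285), as did Mrps6 in the Siglec F-low sort (-0.33, adjusted p = 0.0410). Of these ribosomal proteins 1.3% was called between the naive ages, beside 8.03% of all genes, and 1.3% between the young sorts, beside 12.0%. With age after asbestos it was 1.3% in the Siglec F-high sort, beside 7.32%, and 2.6% in the Siglec F-low sort, beside 7.21%.

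Promoters of nuclear members were searched for the letters of 4 motifs on both strands, in RefSeq windows of 300 bases (250 before to 50 after the start, GRCm38.p6) that matched 67 of the 85 by symbol. GCGCATGC, the core of nuclear respiratory factor 1 (NRF1) sites, occurred in 10 of the 67 (14.9%), against 3.05% of all 27025 genes of the table and 4.11% of its protein-coding genes. CCGGAAG, bound by ETS factors such as GABPA, occurred in 16 (23.9%), against 9.93 and 13.4%. ATGGCGGC of YY1 was found in 6 (8.96%), against 2.6 and 3.62%, and TCAAGGTCA of ERR alpha in 2 (2.99%), against 0.47 and 0.387%. At least 1 motif stood in 28 of the 67 and none in 39, and none of the motifs contains another. Shown here are the 250 bases upstream of Sdhd, called between the young sorts (chr9:50603850-50604099, minus strand), and of Atp5e, a short gene that was high in the library of highest short-gene score (chr2:174464102-174464351, minus strand). Capitals mark the ETS letters, here on the other strand, and the Sdhd window also holds the ERR alpha letters after its start. A match is a description of the sequence only.
Sdhd: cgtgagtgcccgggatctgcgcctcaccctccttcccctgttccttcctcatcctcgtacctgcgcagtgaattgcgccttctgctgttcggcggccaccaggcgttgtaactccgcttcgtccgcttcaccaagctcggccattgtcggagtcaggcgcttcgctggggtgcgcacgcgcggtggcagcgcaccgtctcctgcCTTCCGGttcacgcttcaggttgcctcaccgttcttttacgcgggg
Atp5e: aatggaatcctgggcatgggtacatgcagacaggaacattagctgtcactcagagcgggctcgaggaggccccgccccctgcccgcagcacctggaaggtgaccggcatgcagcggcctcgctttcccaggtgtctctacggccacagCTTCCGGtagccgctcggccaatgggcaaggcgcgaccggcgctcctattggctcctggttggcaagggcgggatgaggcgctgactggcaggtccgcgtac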

How the data were processed

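Poly(A) RNA of 24 libraries was measured, and the authors deposited whole-number counts per Ensembl gene (43430 rows). Per the submitters' processing notes the tools were bcl2fastq 2.19.1, FastQC, Trimmomatic 0.36, STAR 2.6.0 and HTSeq 0.11.2, with build mm10; annotation, strand setting and the handling of reads with several matches are not given in the sources used here. GENCODE M21 held 42546 of the IDs and gave biotypes and positions.

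Genes passing filterByExpr (minimum count 10, total 15) were scaled by TMM and fitted with edgeR 4.0.16 (R 4.3.3), 1 term per group, over 22 libraries of 13423080 to 18124526 counts. The quasi-likelihood F test was used with Benjamini-Hochberg adjustment over all 13629 genes and a threshold of 0.05. Library scores used log2 of CPM plus 0.5. DESeq2 1.42.0, limma 3.58.1 (voom with quality weights), other scaling, filters, blocks and leaving out each library were alternatives.

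Replicate numbers were taken to pair 2 groups where every same-number correlation of deviations was above 0.1. The old asbestos sorts passed (0.150, 0.189 and 0.205), as a hint from the data, since no label says that numbers mark shared mice. Named members were the mitochondrial genes, the catalytic or core subunits, tissue-restricted isoforms, and in each comparison the 5 called members of smallest p in each direction; for other lists, the 2 in each direction. The members and lists were chosen with earlier results of these data known. The tricarboxylic acid cycle list is described in part, since 1 of its genes is not reported here.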

Additional observations from a re-analysis of the deposited data

Results flagged for a closer look

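Totals of the subunit genes and their ratio, the 7 countable mitochondrial genes and the 8 called members were screened for a library far from the rest of its group, in 72 sets of 4 libraries, and 3 were found where chance gives about 1 in 20. Old asbestos Siglec F-low replicate 2 had a mitochondrial sum of 10470 CPM, against 12106 to 12361 in the other 3 libraries, and 4342 CPM of mt-Co1 against 5217 to 5380. Young naive replicate 1 had 290 CPM of Sdha, against 275 to 277. Outside the comparisons, the left-out library young asbestos Siglec F-high replicate 3 had 24160 CPM over the nuclear members, against 6208 to 8709 in naive libraries. The left-out library old asbestos Siglec F-high replicate 3 had a mitochondrial to nuclear ratio of 1.92, against 0.859 to 1.59 in naive libraries.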

How the results depend on the processing

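The number of nuclear members called moved by over 1.5 times under these alternatives, given with the share of all genes called in the same fit. For old against young naive libraries it was 0, and 1 with limma voom (13.9%), 2 without the 3 libraries of high short-gene score (9.63%) and 2 with that score as a covariate (11.5%), the last 2 alternatives chosen after seeing the data. For old against young asbestos Siglec F-high it was 1, and 3 with all 24 libraries (4.76%, all 3 lower), 3 in a fit of only the groups compared (10.2%), 3 with voom (14.4%), 2 without the 3 libraries (9.06%) and 2 with the covariate (9.51%). Ndufa1 there turned to -0.05 with all 24 libraries. For old against young Siglec F-low it was 2, and 0 with all 24 libraries (1.29%). For asbestos against naive in young mice it was 0, and 2 with DESeq2 (8.41%), 18 with voom (14%), 11 without the 3 libraries (5.41%) and 11 with the covariate (8.78%). In old mice it was 3, and 0 with all 24 libraries (0.78%), 6 with voom (5.14%), 8 without the 3 libraries (5.43%) and 7 with the covariate (6.68%). Between the young sorts it was 2, and 0 with all 24 libraries (4.99%), 6 with voom (17.6%) and 0 without the 3 libraries (6.28%). Between the old sorts it was 3, and 1 with all 24 libraries (4.3%), 10 with only the groups compared (12.4%, 9 higher and 1 lower), 7 with voom (15.5%, 6 higher and 1 lower), 12 without the 3 libraries (13.4%, 11 higher and 1 lower) and 22 with the covariate (16.3%, 20 higher and 2 lower). Leaving out 1 library gave 0 to 1, 1 to 3, 0 to 2, 0 to 5, 0 to 11 and 1 to 5 in these 6 comparisons after the first, in the order given. For these fits without 1 library the shares of all genes called are not given here. The cause of the moves was not tested.

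With the replicate number as an additive block over all groups the young sorts gave 25 nuclear calls (17.9% of all genes). With a block of the sorts within an age there were 10 (12.6%). Numbers were not taken to pair the young sorts, since replicate 2 correlated at 0.0854, under the limit of 0.1. Replicates 1 and 4 correlated at 0.319 and 0.234, above the values of the old sorts. For mitochondrial members the young sorts gave 0 calls, and 2 with no filter (6.09% of all genes). There was 1 each with the additive block (17.9%), only the groups compared (13.4%), DESeq2 (14.1%) and voom (17.6%). With 1 library left out there were 0 to 2, with no share of all genes given here. The interactions gave 0 calls in every alternative run. Of 589 list medians under alternatives 12 moved by more than 1 SD between libraries, 7 of them with all 24 libraries. Depth limits the rare isoforms and the 6 mitochondrial genes with few or no counts.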
